A study of Homo sapiens with 8 samples.

Results

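Interferon-stimulated genes are the genes that cells switch on after interferon binds its receptors. The set described here holds 39 human genes, fixed by name, and takes every probe that the platform annotation gives to those names or to an older alias (RIGI is the current name of DDX58). A named probe was found for 36 of the 39 genes, with 50 probes in all, out of 16922 named genes and 24526 probes on the array. STAT2, a subunit of the interferon-activated transcription factor ISGF3, USP18, a protease that removes ISG15 and dampens receptor signalling, and HERC6, a relative of HERC5 that is the main ISG15 ligase in mouse, had no probe of that name and are not analysed here.

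Total RNA from 8 human breast cell cultures had been hybridised to Illumina bead arrays, with 1 array per group. SUM1315, MDA-MB231 and SUM159 are established basal-like breast cancer cell lines and were measured untransfected. Further SUM159 cultures carried stably transfected IRX5, a homeobox transcription factor, or LacZ, a bacterial enzyme gene used as control. HMLE, a human mammary epithelial cell line immortalized with telomerase and a viral large T antigen and not derived from a tumour, had been stably transfected with Foxq1, a forkhead transcription factor, with Gcnt2, a glycosyltransferase, or with LacZ as control. The stated aims were to find genes downstream of Foxq1 and IRX5 and to compare the basal-like lines. The vector, its promoter and whether the transfected cells were pools or single clones are not given in the labels. No label names an interferon treatment or a viral infection in any culture.

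Type I and type III interferons act through cell-surface receptors whose kinases JAK1 and TYK2 activate ISGF3, which binds through IRF9 to the interferon-stimulated response element (ISRE) of target promoters. Interferon gamma acts mainly on gamma-activated sites (GAS). The products include RNA sensors, the oligoadenylate synthases, the IFIT proteins that bind foreign RNA, the IFITM proteins that stop viral membrane fusion, dynamin-like GTPases and the ubiquitin-like modifier ISG15, and tumour cell lines are known to differ in how much of this programme they express without added interferon.

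Levels are given as the authors' deposited intensity, a linear and unitless brightness of the probe that was normalized between arrays. An intensity above 141 was taken as above the detection limit, which was set from the spread of the dimmest probes around their most common value of 109.5. Differences are on the log2 scale after a background correction, folds come from that scale and can exceed the ratio of the printed intensities, and on that scale a gene counts as higher or lower where the fold is at least 2 with at least 1 array above the limit. Where 1 of the arrays lay below the limit it was set at the limit, and the fold is given as "at least", taken on whichever of the corrected and the deposited intensities gives the smaller fold. Each gene is read by its brightest probe over the 8 arrays, and levels of different genes are not set against each other. Since each group has a single array, nothing here is replicated and no p-values were computed. Counts of members are read beside the same count over all genes where that was made. It was not made for the order of the arrays or lines. Members and lists were chosen with earlier results of these data known. A share of members above that of all genes therefore describes the chosen genes only and is not a test. In bulk RNA, fewer cells that express a gene and less RNA per cell cannot be told apart.

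The probes of the transfected genes bear on the labels. Gcnt2 was high where labelled, with 9104 in HMLE Gcnt2 and 106 in HMLE LacZ for 1 of the 4 GCNT2 probes. FOXQ1 stood at 299 in the array labelled Foxq1, 1378 in HMLE Gcnt2 and 1641 in HMLE LacZ, so among the HMLE arrays it was lowest in the one labelled with its transfection. IRX5 read 151 in the array labelled IRX5, 165 in SUM159 LacZ and 163 in SUM159. The position of these probes within the transcripts, and whether a transgene of another species or without its untranslated ends would be read by them, was not tested. Every direction below that involves these arrays rests on their labels. Keratin genes of the basal layer, KRT5 and KRT14, read between 8303 and 21430 in the 3 HMLE arrays, and both were below the limit in all 5 arrays of the basal-like lines.

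The promoters of the members carry the ISRE letters far more often than promoters at large, which the choice of the genes by name did not use. RefSeq promoters on the build GRCh38.p14, from 250 bases before to 50 bases after a start site, were found for 30 of the 39 genes. The ISRE core was searched as GAAA and GAAA with 2 bases of any kind between them, or on the other strand TTTC and TTTC with 2 between, and the GAS core as TTC and GAA with 3 bases between, which reads the same on both strands. Overlapping matches were counted. The ISRE core was present for 21 of these 30 genes (70%), against 1195 of 27305 genes in the promoter table (4.38%). The GAS core was present for 9 of the 30 genes (30%), against 2560 of 27305 (9.38%). A match is a description of letters and not a bound site. The stretches of 170 bases that end at the start site are given here for genes whose levels the results turn on, 5′ to 3′ on the strand of the gene, with the ISRE core in capitals for the first 7 genes and the GAS core in capitals for IRF1.
IFIT1: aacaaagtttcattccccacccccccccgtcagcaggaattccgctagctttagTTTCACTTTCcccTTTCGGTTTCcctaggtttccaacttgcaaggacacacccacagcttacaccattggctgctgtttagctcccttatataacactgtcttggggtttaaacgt
HERC5: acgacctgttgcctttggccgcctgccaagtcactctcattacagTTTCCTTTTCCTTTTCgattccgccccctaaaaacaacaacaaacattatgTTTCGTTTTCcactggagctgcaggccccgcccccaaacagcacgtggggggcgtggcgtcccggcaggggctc
ISG15: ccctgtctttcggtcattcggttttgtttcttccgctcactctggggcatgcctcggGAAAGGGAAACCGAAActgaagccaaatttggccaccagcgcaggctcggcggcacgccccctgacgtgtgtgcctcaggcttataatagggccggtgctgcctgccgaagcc
IFI44L: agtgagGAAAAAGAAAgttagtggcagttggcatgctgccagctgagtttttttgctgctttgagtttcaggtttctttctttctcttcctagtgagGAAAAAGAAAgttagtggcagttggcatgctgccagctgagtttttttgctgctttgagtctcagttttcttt
IFITM3: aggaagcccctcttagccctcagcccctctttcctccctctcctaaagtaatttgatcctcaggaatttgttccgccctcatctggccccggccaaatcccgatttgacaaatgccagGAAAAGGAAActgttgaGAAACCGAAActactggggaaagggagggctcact
BST2: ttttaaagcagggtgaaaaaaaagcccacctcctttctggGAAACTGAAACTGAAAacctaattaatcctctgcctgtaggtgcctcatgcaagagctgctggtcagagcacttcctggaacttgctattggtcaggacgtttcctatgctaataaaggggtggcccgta
GBP1: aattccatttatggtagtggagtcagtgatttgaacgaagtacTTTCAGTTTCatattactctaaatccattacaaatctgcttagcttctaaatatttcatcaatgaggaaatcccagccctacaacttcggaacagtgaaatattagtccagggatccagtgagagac
IRF1: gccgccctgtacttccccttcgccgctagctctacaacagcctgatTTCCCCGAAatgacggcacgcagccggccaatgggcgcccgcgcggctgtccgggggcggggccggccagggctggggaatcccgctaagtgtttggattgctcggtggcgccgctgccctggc

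These stretches lie at chr10:89392453-89392622 on the plus strand for IFIT1, chr4:88456949-88457118 on the plus strand for HERC5, chr1:1013327-1013496 on the plus strand for ISG15 and chr1:78620278-78620447 on the plus strand for IFI44L. Those of IFITM3 at chr11:320861-321030, BST2 at chr19:17405631-17405800, GBP1 at chr1:89065209-89065378 and IRF1 at chr5:132490774-132490943 are on the minus strand. HERC5 held 3 ISRE matches, of which 2 overlap, and GBP1 held 1. IFIT1, ISG15, IFI44L, IFITM3 and BST2 held 2 each, those of ISG15 and of BST2 overlap, and both matches of IFI44L have the same letters. Outside the printed set, IFI6, IFIH1 and IFIT5 held 3 ISRE matches each, and IRF9, IFI35, OAS1 and SP110 held a GAS core without an ISRE core in the window.

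Many members also sit side by side in the genome. With at most 2 other coding genes between neighbours, 18 of the 39 members fell into 7 groups: IFI44L with IFI44 and GBP1 with GBP2 on chromosome 1, IFIT2, IFIT3, IFIT1 and IFIT5 on chromosome 10, IFITM2, IFITM1 and IFITM3 on chromosome 11, OAS1, OAS3 and OAS2 on chromosome 12, MX2 with MX1 on chromosome 21, and HERC6 with HERC5 on chromosome 4.

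All 36 measured members were above the detection limit in at least 1 array, and 24 of them were above it in all 8. The number above the limit was 34 of 36 in SUM1315, 29 in MDA-MB231, 30 in SUM159 labelled IRX5, 32 in SUM159 LacZ, 26 in SUM159, 36 in HMLE labelled Foxq1, 30 in HMLE Gcnt2 and 34 in HMLE LacZ. Over all genes this number was nearly level, between 10381 and 10727 per array. The array labelled Foxq1 held the highest level of 14 members and the lowest of none, and SUM1315 held the highest of 11. Untransfected SUM159 held the lowest level of 14 members and the highest of none. The same order over all genes was not counted.

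**Figure D1:**
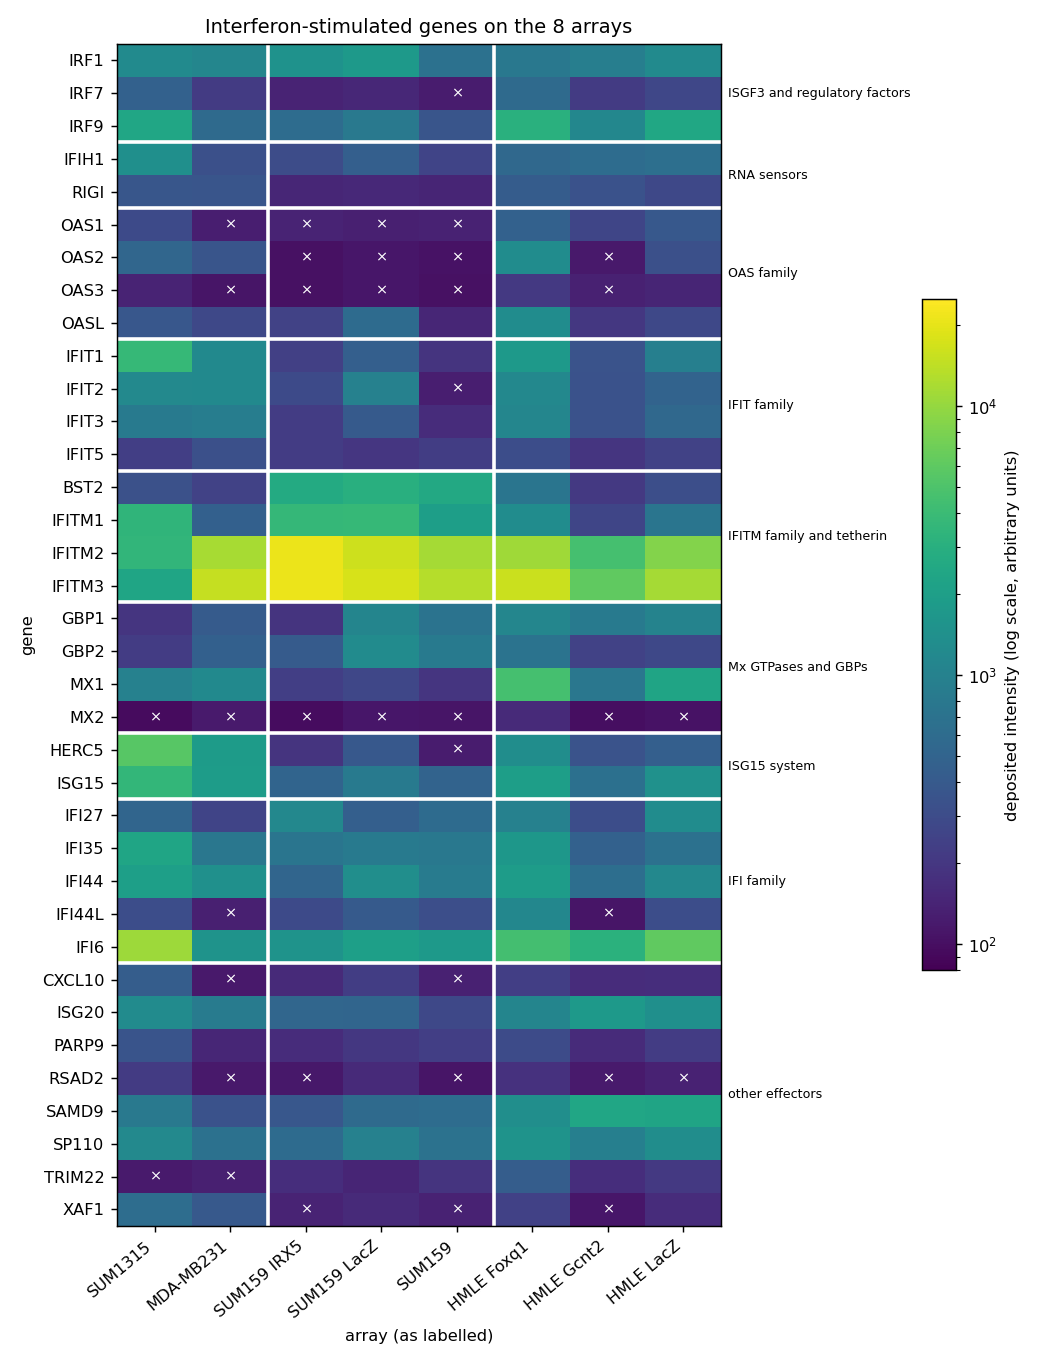
Deposited intensity of the 36 measured interferon-stimulated genes (rows, grouped by role) in the 8 arrays (columns, as labelled), coloured on a log scale in arbitrary units, with a cross where the intensity is at or below the detection limit. Untransfected SUM159 has 26 genes above the limit, HMLE labelled Foxq1 has 36, and IFITM2 and IFITM3 are bright in every array.

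The regulators of the programme differed between lines. IRF9, the DNA-binding subunit of ISGF3, read 2404 in SUM1315, 587 in MDA-MB231, 614 in SUM159 labelled IRX5, 825 in SUM159 LacZ, 365 in SUM159, 3075 in HMLE labelled Foxq1, 1143 in HMLE Gcnt2 and 2457 in HMLE LacZ. It was high in SUM1315, HMLE labelled Foxq1 and HMLE LacZ and lowest in untransfected SUM159. IRF7, the factor that amplifies interferon gene transcription, read 476 in SUM1315, 217 in MDA-MB231, 143 in SUM159 labelled IRX5, 152 in SUM159 LacZ, 124 in SUM159, 578 in HMLE labelled Foxq1, 219.6 in HMLE Gcnt2 and 274 in HMLE LacZ. The high arrays were again HMLE labelled Foxq1 and SUM1315, and the 3 SUM159 arrays were at or near the limit. IRF1, a factor induced through GAS elements, was between 686 in SUM159 and 1733 in SUM159 LacZ, and its highest level among the 4 lines was 1.87-fold above its lowest.

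Of the RNA sensors, IFIH1 (MDA5), which binds long double-stranded RNA, read 1399.5 in SUM1315, 327 in MDA-MB231, 306 in SUM159 labelled IRX5, 457 in SUM159 LacZ, 261 in SUM159, 551 in HMLE labelled Foxq1, 612 in HMLE Gcnt2 and 646 in HMLE LacZ. It stood apart in SUM1315 and differed little among the 3 HMLE arrays. RIGI, the sensor of short RNA with an uncapped end, was between 146 in SUM159 and 422 in HMLE labelled Foxq1. All 3 SUM159 arrays, at 147 (labelled IRX5), 154 (LacZ) and 146 (untransfected), were just above the limit.

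The OAS family makes the small messenger that activates RNase L once double-stranded RNA is bound, and OASL is its catalytically inactive relative. OAS2 read 536 in SUM1315, 367 in MDA-MB231, 103 in SUM159 labelled IRX5, 113 in SUM159 LacZ, 105 in SUM159, 1322 in HMLE labelled Foxq1, 119 in HMLE Gcnt2 and 323 in HMLE LacZ. All 3 SUM159 arrays and HMLE Gcnt2 were below the limit for it. OASL read 384 in SUM1315, 276 in MDA-MB231, 248 in SUM159 labelled IRX5, 589.7 in SUM159 LacZ, 149 in SUM159, 1318 in HMLE labelled Foxq1, 203 in HMLE Gcnt2 and 279 in HMLE LacZ. It was highest in HMLE labelled Foxq1 and, among the SUM159 arrays, in SUM159 LacZ. By its brightest probe, OAS1 was above the limit in 4 arrays, with 288 in SUM1315, 477 in HMLE labelled Foxq1, 268 in HMLE Gcnt2 and 387 in HMLE LacZ. By that probe it was below the limit in MDA-MB231 and the 3 SUM159 arrays. Another OAS1 probe lay close to the limit there, at 149 in MDA-MB231, 148 in SUM159 labelled IRX5, 138 in SUM159 LacZ and 146 in SUM159. OAS3 was dim throughout, with a highest intensity of 208 in HMLE labelled Foxq1.

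The IFIT proteins hold on to RNA that lacks the host's cap modifications. IFIT1 read 3773 in SUM1315, 1227 in MDA-MB231, 239.6 in SUM159 labelled IRX5, 453 in SUM159 LacZ, 190.4 in SUM159, 1743 in HMLE labelled Foxq1, 347 in HMLE Gcnt2 and 961 in HMLE LacZ. IFIT2, which lies in the same cluster on chromosome 10, read 1198 in SUM1315, 1211 in MDA-MB231, 289.6 in SUM159 labelled IRX5, 999 in SUM159 LacZ, 129 in SUM159, 1169 in HMLE labelled Foxq1, 342 in HMLE Gcnt2 and 493 in HMLE LacZ. IFIT3, which stabilises IFIT1 on RNA, read 857 in SUM1315, 919 in MDA-MB231, 220.4 in SUM159 labelled IRX5, 405 in SUM159 LacZ, 165 in SUM159, 1127 in HMLE labelled Foxq1, 342 in HMLE Gcnt2 and 554 in HMLE LacZ. For all 3 genes untransfected SUM159 was the lowest array, SUM159 labelled IRX5 came next, and the 2 other untransfected lines were among the higher arrays. IFIT5 lay within a narrow range, between 193 in HMLE Gcnt2 and 326 in MDA-MB231.

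The IFITM genes and the tetherin gene followed other orders of lines, which differed between IFITM1, IFITM3 and BST2. IFITM1, found mainly at the cell surface, read 3396 in SUM1315, 468 in MDA-MB231, 3704 in SUM159 labelled IRX5, 3737 in SUM159 LacZ, 2010.1 in SUM159, 1316 in HMLE labelled Foxq1, 267 in HMLE Gcnt2 and 751 in HMLE LacZ. IFITM3, found mainly in endosomes, read 2367 in SUM1315, 15250.4 in MDA-MB231, 21299 in SUM159 labelled IRX5, 17571 in SUM159 LacZ, 13323 in SUM159, 15783 in HMLE labelled Foxq1, 6165 in HMLE Gcnt2 and 11464 in HMLE LacZ. Its paralog IFITM2 was between 3545 in SUM1315 and 20974 in SUM159 labelled IRX5; IFITM2 and IFITM3 are nearly identical in sequence, the probe sequences were not used here, and cross-hybridisation between them was not tested. BST2 (tetherin), which ties budding virions to the cell, read 329.9 in SUM1315, 251 in MDA-MB231, 2709.5 in SUM159 labelled IRX5, 2968 in SUM159 LacZ, 2548 in SUM159, 748 in HMLE labelled Foxq1, 209 in HMLE Gcnt2 and 319 in HMLE LacZ. BST2 was high in the 3 SUM159 arrays, where OAS2, MX1 and XAF1 were low, and IFITM3 was low only in SUM1315 and HMLE Gcnt2.

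Among the GTPases, MX1, which acts against influenza viruses, read 1008 in SUM1315, 1220.2 in MDA-MB231, 230.4 in SUM159 labelled IRX5, 269 in SUM159 LacZ, 196 in SUM159, 4615 in HMLE labelled Foxq1, 788 in HMLE Gcnt2 and 2283 in HMLE LacZ. The 3 HMLE arrays and the 2 other untransfected lines were all above the 3 SUM159 arrays. MX2, which restricts HIV, was above the limit only in HMLE labelled Foxq1, at 160.3. GBP1, a guanylate-binding protein that attacks intracellular pathogens, read 194 in SUM1315, 417 in MDA-MB231, 190.2 in SUM159 labelled IRX5, 1099.7 in SUM159 LacZ, 712 in SUM159, 1111 in HMLE labelled Foxq1, 843 in HMLE Gcnt2 and 1040.5 in HMLE LacZ. GBP2, its neighbour on chromosome 1, read 224 in SUM1315, 465 in MDA-MB231, 418 in SUM159 labelled IRX5, 1271 in SUM159 LacZ, 855 in SUM159, 714 in HMLE labelled Foxq1, 249 in HMLE Gcnt2 and 275 in HMLE LacZ. Both were low in SUM1315, and within SUM159 both were lowest in the array labelled IRX5.

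ISG15, the ubiquitin-like protein that is attached to newly made proteins, read 3573 in SUM1315, 1899.7 in MDA-MB231, 510.5 in SUM159 labelled IRX5, 851 in SUM159 LacZ, 500.3 in SUM159, 1995 in HMLE labelled Foxq1, 659.8 in HMLE Gcnt2 and 1463 in HMLE LacZ. HERC5, its main ligase in human cells, read 5606 in SUM1315, 1858 in MDA-MB231, 188 in SUM159 labelled IRX5, 385 in SUM159 LacZ, 123 in SUM159, 1328 in HMLE labelled Foxq1, 348 in HMLE Gcnt2 and 458 in HMLE LacZ. HERC5 spanned the widest range of the set over the 4 lines (HMLE LacZ standing for HMLE), at least 39.8-fold between SUM1315 and SUM159, since SUM159 was below the limit.

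Of the IFI genes, IFI6, a small membrane protein that protects from cell death, read 10822 in SUM1315, 1544 in MDA-MB231, 1531 in SUM159 labelled IRX5, 2066 in SUM159 LacZ, 1799 in SUM159, 4542 in HMLE labelled Foxq1, 3104 in HMLE Gcnt2 and 6165 in HMLE LacZ. Its relative IFI27 read 523 in SUM1315, 258 in MDA-MB231, 1162 in SUM159 labelled IRX5, 452 in SUM159 LacZ, 592 in SUM159, 1000.1 in HMLE labelled Foxq1, 312 in HMLE Gcnt2 and 1320.4 in HMLE LacZ. IFI35, a leucine zipper protein that pairs with NMI, read 2347 in SUM1315, 781 in MDA-MB231, 744 in SUM159 labelled IRX5, 842 in SUM159 LacZ, 804 in SUM159, 1686 in HMLE labelled Foxq1, 478 in HMLE Gcnt2 and 679.6 in HMLE LacZ. IFI6 and IFI35 were highest in SUM1315, and IFI27 in HMLE LacZ and in SUM159 labelled IRX5. IFI44L read 309 in SUM1315, 132 in MDA-MB231, 289.98 in SUM159 labelled IRX5, 403 in SUM159 LacZ, 318 in SUM159, 1134 in HMLE labelled Foxq1, 110.2 in HMLE Gcnt2 and 312 in HMLE LacZ. It was highest in HMLE labelled Foxq1 and below the limit in MDA-MB231 and HMLE Gcnt2. Its neighbour and relative IFI44 was between 527 in SUM159 labelled IRX5 and 2051 in SUM1315.

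Of the remaining effectors, ISG20, an RNA exonuclease, read 1283 in SUM1315, 865 in MDA-MB231, 537 in SUM159 labelled IRX5, 523 in SUM159 LacZ, 275 in SUM159, 1086 in HMLE labelled Foxq1, 1767 in HMLE Gcnt2 and 1398 in HMLE LacZ. SAMD9, an antiviral factor known from poxvirus infection, read 816 in SUM1315, 342 in MDA-MB231, 378 in SUM159 labelled IRX5, 589 in SUM159 LacZ, 608 in SUM159, 1361 in HMLE labelled Foxq1, 2378 in HMLE Gcnt2 and 2277 in HMLE LacZ. Both were highest in HMLE Gcnt2 and lower in HMLE labelled Foxq1 than in HMLE LacZ. XAF1, a promoter of cell death, read 627 in SUM1315, 398 in MDA-MB231, 140.3 in SUM159 labelled IRX5, 159 in SUM159 LacZ, 138 in SUM159, 240.4 in HMLE labelled Foxq1, 114 in HMLE Gcnt2 and 168 in HMLE LacZ. TRIM22, a ubiquitin ligase, read 121 in SUM1315, 131 in MDA-MB231, 170.3 in SUM159 labelled IRX5, 144 in SUM159 LacZ, 188 in SUM159, 439 in HMLE labelled Foxq1, 170.3 in HMLE Gcnt2 and 209 in HMLE LacZ. XAF1 was highest in SUM1315, where TRIM22 was below the limit, and TRIM22 was highest in HMLE labelled Foxq1. The chemokine CXCL10 was highest in SUM1315 at 434 and below the limit in MDA-MB231 and SUM159. RSAD2 (viperin), which makes a chain-terminating nucleotide, passed the limit in 3 arrays, at 217 in SUM1315, 159 in SUM159 LacZ and 180.4 in HMLE labelled Foxq1. PARP9, a member of the ADP-ribosyltransferase family that pairs with DTX3L, was between 147 in MDA-MB231 and 356 in SUM1315. SP110, a nuclear body protein, was between 599 in SUM159 labelled IRX5 and 1529 in HMLE labelled Foxq1.

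The comparison of HMLE labelled Foxq1 with HMLE LacZ addressed genes downstream of Foxq1. Interferon-stimulated genes were mostly higher in the array labelled Foxq1: 12 of 36 were at least 2-fold higher (33.3%), where 6.17% of the 11321 genes compared were, and 0 of 36 were at least 2-fold lower, where 5.49% of all genes were. The median difference of the members was 0.62 on the log2 scale, against 0.09 over all genes. Above 0 were 30 of the 36 members, where 6453 of the 11321 genes were. With members below the limit set at the limit, the median was 0.57.

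OASL was 5.20-fold and OAS2 4.42-fold higher, but their probes disagree and neither was at least 2-fold higher by the probe nearest to 0, while OAS1 (1.25-fold) and OAS3 (1.54-fold) were within 2-fold. IFI44L was 3.92-fold higher, HERC5 3.04-fold, GBP2 2.80-fold, IFI35 2.55-fold and BST2 2.49-fold. IFIT2 was 2.46-fold higher, TRIM22 2.29-fold, IRF7 2.25-fold, IFIT3 2.10-fold and MX1 2.04-fold. These 12 genes came from 8 of the 9 roles, and none was an RNA sensor. The ones on the other side of 0 were IFIH1 at -0.24, ISG20 at -0.37, IFI27 at -0.41, IFI6 at -0.44, IRF1 at -0.67 and SAMD9 at -0.76 on the log2 scale, each within 2-fold. IRF9, IFIT1 and ISG15 were within 2-fold too, at 0.33, 0.88 and 0.46.

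How far 2 arrays of 1 line can lie apart was read from SUM159 LacZ and untransfected SUM159. OASL and OAS2 differed by more than percentile 99 of that pair among genes of similar brightness, which 1.51% of all genes also did upward. The yardstick comes from a single pair of arrays and so has no error of its own.

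Probes of the same gene were less alike in this pair of arrays than in the others. Among genes with at least 2 probes at an intensity of 500 or more, 86 of 649 (13.3%) had probes over 4-fold apart in HMLE labelled Foxq1 over HMLE LacZ, against 0 of 613 in HMLE Gcnt2 over HMLE LacZ and 0 of 646 in SUM159 LacZ over SUM159. Of the 6 members with at least 2 probes above the limit, 3 had probes of opposite sign in the pair with the array labelled Foxq1, and 0 of 6 had in HMLE Gcnt2 over HMLE LacZ. The 3 IFIT3 probes ran from -3.17 to 1.07, and 2 of them, annotated to the same transcript, read 1127 and 101 in the array labelled Foxq1 but 554 and 661 in HMLE LacZ. The 4 OAS2 probes ran from -0.97 to 2.14, the OAS1 probes from -0.15 to 0.43, and the OASL probes from 0.54 to 2.38. Taking for each gene the probe nearest to 0 left 9 members higher, without OASL, OAS2 and IFIT3. The part of this probe spread in the count was not tested for genes with 1 probe.

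**Figure D2:**
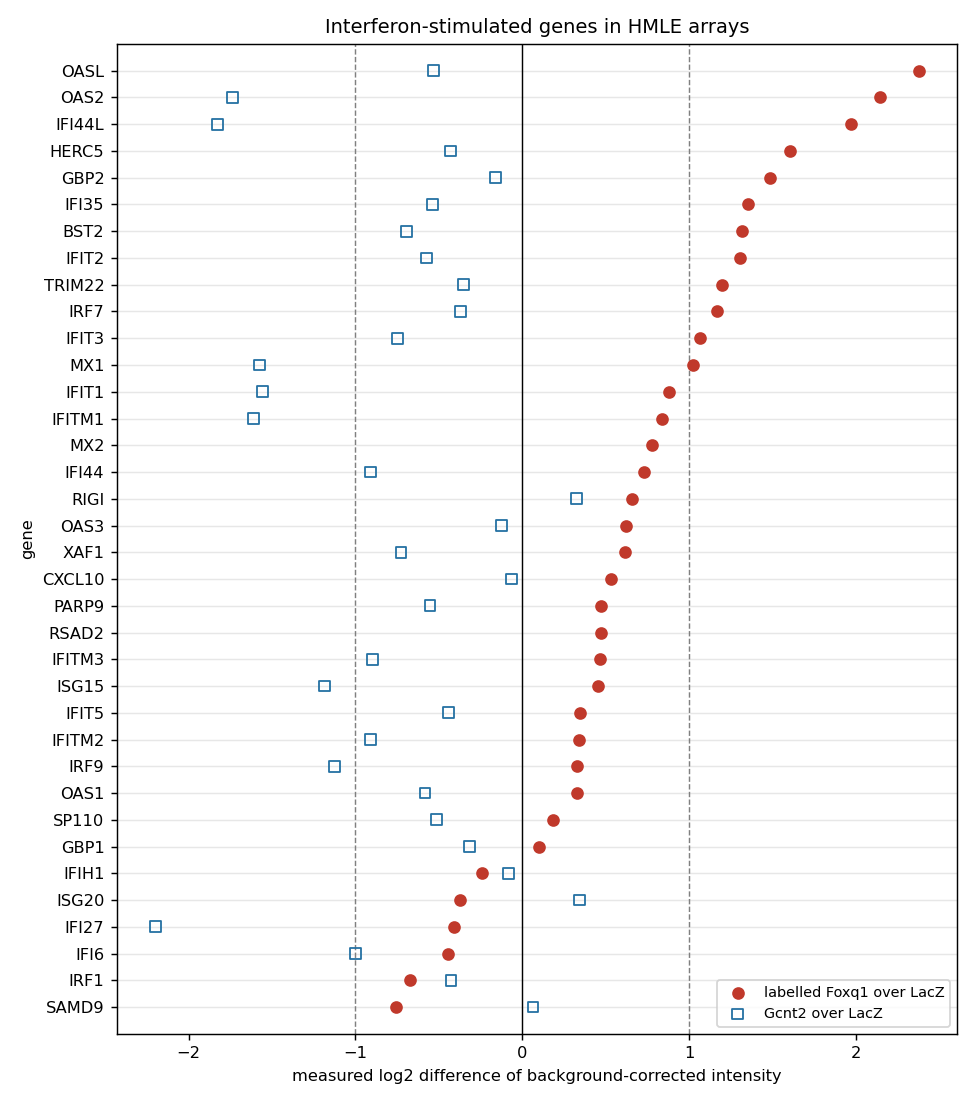
Measured log2 difference of background-corrected intensity (horizontal axis) of each interferon-stimulated gene (rows) in HMLE labelled Foxq1 over HMLE LacZ (filled circles) and in HMLE Gcnt2 over HMLE LacZ (open squares), with dashed lines at 2-fold. Filled circles lie right of 0 for 30 of 36 genes, and open squares left of 0 for 31 of 34; both series share the LacZ array.

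The comparison of HMLE Gcnt2 with HMLE LacZ went the other way for most members, with the same LacZ array on the other side, so the 2 comparisons are not independent. At least 2-fold lower in HMLE Gcnt2 were 8 of 34 members (23.5%), where 0.777% of 10942 genes were, and 0 were at least 2-fold higher, where 0.283% of genes were. The median was -0.56, against -0.00 over all genes, and 31 of 34 members were below 0, where 5494 of 10942 genes were.

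IFI27 was 4.59-fold lower in HMLE Gcnt2, IFITM1 3.05-fold, MX1 2.97-fold and IFIT1 2.95-fold. OAS2 was at least 2.29-fold and IFI44L at least 2.21-fold lower, both below the limit in HMLE Gcnt2. ISG15 was 2.28-fold lower and IRF9 2.18-fold, and IFI6 stood just inside the 2-fold line at -1.0. A second IFI6 probe was 3.48-fold lower, with 440 in HMLE Gcnt2 and 1454 in HMLE LacZ. OAS2 was not called with the probe nearest to 0. MX1 and IFI27 lay below percentile 99 of the SUM159 control pair, as 0.137% of all genes did. The 3 members above 0 were RIGI at 0.32, ISG20 at 0.34 and SAMD9 at 0.06. Of the 8 genes lower in HMLE Gcnt2, 7 had a promoter in the table and 6 of those held the ISRE core, and of the 12 higher in the array labelled Foxq1, 6 had a promoter and 5 held it; among members within 2-fold it was 14 of 20 and 16 of 22 for the same comparisons. Across the 3 HMLE arrays, 30 of 36 members were highest in the array labelled Foxq1 and 31 of 36 were lowest in HMLE Gcnt2. This order was not counted over all genes.

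None of the 21 interferon genes was at least 2-fold apart in either comparison, of which 4 could be compared in each, and IFNB1 was below the limit in all 8 arrays. Between 1 and 3 interferon genes passed the limit in each array, and IFNA8 did so in all 8, at 366 to 491.

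Among the receptors and JAK-STAT genes, JAK1, the kinase shared by the receptors for type I, II and III interferon, read 176 in HMLE labelled Foxq1, 1430.3 in HMLE Gcnt2 and 1306 in HMLE LacZ, which is 8.77-fold lower for the array labelled Foxq1 relative to LacZ. It was read by a single probe and was the 1 of 10 such genes at least 2-fold apart; none of the 10 was in HMLE Gcnt2. The receptor chain IFNAR1 read 612, 486 and 389.7 in HMLE labelled Foxq1, Gcnt2 and LacZ. IFNAR2 read 654, 663 and 622 in HMLE labelled Foxq1, Gcnt2 and LacZ. Neither chain was 2-fold apart in either comparison.

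Of 15 sensors and adaptors, DHX58, a relative of RIGI, was 2.01-fold higher in HMLE labelled Foxq1, and TICAM1, the adaptor of the RNA sensor TLR3, was 2.25-fold higher in HMLE Gcnt2. Of the negative regulators, 0 of 8 in the array labelled Foxq1 and 0 of 7 in HMLE Gcnt2 were at least 2-fold apart from LacZ. In a longer list of other interferon-stimulated genes, the array labelled Foxq1 had 3 of 40 higher and 3 of 40 lower (7.5% each), close to the 6.17% and 5.49% of all genes, with a median of 0.25. The higher ones were UBA7 (2.83-fold) and UBE2L6 (2.52-fold), the activating and conjugating enzymes of ISG15, and PSMB9 (2.47-fold), an immunoproteasome subunit. PLSCR1 was 3.35-fold, HERC3 2.44-fold and TRIM5 2.41-fold lower. A second UBE2L6 probe went the other way, at -0.91 on the log2 scale. A second PSMB9 probe was at 0.65 and other TRIM5 probes were at -0.79 and -0.71, the same direction but within 2-fold. In HMLE Gcnt2 over HMLE LacZ, 0 of 39 genes of this list were at least 2-fold apart and their median was -0.13. Genes preferred by interferon gamma had 2 of 7 higher in the array labelled Foxq1, the antigen presentation genes HLA-DMA (2.17-fold) and HLA-DPA1 (2.11-fold). Their median was 0.65, or 0.47 with dim arrays set at the limit, and 7 of 7 were above 0. In HMLE Gcnt2 0 of 7 were at least 2-fold apart.

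Some markers of cell state also differed between the HMLE arrays. Of 6 epithelial markers, 2 were at least 2-fold lower in HMLE labelled Foxq1 than in HMLE LacZ, CDH1 (6.95-fold) and KRT18 (at least 4.52-fold). A second KRT18 probe was within 2-fold, at -0.81 on the log2 scale with the array labelled Foxq1 set at the limit. Of 6 mesenchymal markers, 4 were higher, DCN (17.1-fold), PDGFRB (9.95-fold), COL1A2 (5.69-fold) and VIM (2.11-fold), while CDH2 at -0.88 and FN1 at -0.70 on the log2 scale were below 0 and within 2-fold. The DCN call depends on the probe, since a second DCN probe was at 0.15 on the log2 scale, with 290 in HMLE labelled Foxq1 and 265 in HMLE LacZ. In HMLE Gcnt2 over HMLE LacZ, 0 of 6 epithelial markers were apart and 3 of 6 mesenchymal markers were lower, DCN (3.80-fold), CDH2 (2.63-fold) and VIM (2.40-fold). Summed over each list, epithelial markers stood at 21182 in HMLE labelled Foxq1, 56877 in HMLE Gcnt2 and 41215 in HMLE LacZ, and mesenchymal markers at 53024, 10253 and 24597 in the same order of arrays. Most of the mesenchymal sum is 1 probe, VIM, at 35642, 7074 and 16941, and most of the epithelial sum is KRT5 and KRT14, so the sums say little of the other markers. The markers' part in the interferon-stimulated genes was not tested.

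Lineage markers of blood cells were mostly below the limit. The T cell gene CD3E, the natural killer gene NKG7 and the myeloid gene ITGAM were below the limit in every array, and the pan-leukocyte gene PTPRC was above it only in HMLE Gcnt2, at 146. CD14, a monocyte marker also found outside the blood, read 148 in SUM1315, 222 in MDA-MB231, 1072 in SUM159 labelled IRX5, 426 in SUM159 LacZ, 179 in SUM159, 1574 in HMLE labelled Foxq1, 383 in HMLE Gcnt2 and 645 in HMLE LacZ. It was 2.51-fold higher in HMLE labelled Foxq1 relative to HMLE LacZ, and its part in the results was not tested. CD68 was between 613 in HMLE labelled Foxq1 and 1893 in SUM1315, and LYZ was between 124 in SUM159 LacZ and 193 in MDA-MB231. The 7 leukocyte genes with a probe summed to between 1432 in SUM159 and 2779 in HMLE labelled Foxq1. Of the plasmacytoid dendritic markers, CLEC4C was below the limit in every array, LILRA4 did not exceed 157, and TCF4, also made outside the blood, reached 323 in HMLE labelled Foxq1, 261 in HMLE Gcnt2, 163 in HMLE LacZ and 368 in SUM159. Of the endothelial markers, CDH5 and VWF were below the limit in every array and PECAM1 was between 187 and 282.

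Within SUM159, the array labelled IRX5 can be set against 2 controls, and those controls differed from each other in interferon-stimulated genes. SUM159 LacZ was at least 2-fold above untransfected SUM159 for 8 of 32 members (25%), where 2.25% of 10997 genes were, and below it for 0, where 1.28% were. The median was 0.56, against -0.01 over all genes, with 27 of 32 members above 0, where 5334 of 10997 genes were. IFIT2 was at least 7.08-fold higher in SUM159 LacZ, OASL 4.73-fold, HERC5 at least 2.73-fold, IFIT3 2.79-fold, IFIT1 2.65-fold, IRF1 2.60-fold, IRF9 2.37-fold and ISG20 2.02-fold. OASL and IFIT3 were not called with the probe nearest to 0. None of the interferon, receptor, sensor, negative regulator, other interferon-stimulated or interferon gamma preferred lists had a gene at least 2-fold apart in this pair.

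The array labelled IRX5 lay between the 2 controls for 19 of the 32 members above the limit in a SUM159 array. The same count over all genes was not made, so this is a description of the members only. Against SUM159 LacZ, 7 of 32 members were at least 2-fold lower in the array labelled IRX5 (21.9%), where 1.96% of 10945 genes were, and 1 was higher, where 1.15% were, with a median of -0.44. Against untransfected SUM159, 4 of 30 members were higher (13.3%), where 2.99% of 11020 genes were, and 2 were lower (6.67%), where 3.34% were, with a median of 0.26. That median was 0.14 with dim arrays set at the limit and 0.05 with no filter on dim genes, and without the background correction 2 members were higher and 2 lower. In the longer list of other interferon-stimulated genes, 0 of 37 were at least 2-fold apart in either comparison. The median of that list was -0.05 against SUM159 LacZ and 0.05 against untransfected SUM159.

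GBP1, GBP2 and IFI27 were at least 2-fold beyond both controls. How many of all genes were was not counted. GBP1 was 6.71-fold lower in the array labelled IRX5 than in SUM159 LacZ and 4.28-fold lower than in SUM159. GBP2 was 3.21-fold lower than in SUM159 LacZ and 2.13-fold lower than in SUM159. IFI27 was 2.68-fold higher than in SUM159 LacZ and 2.02-fold higher than in SUM159. The last fold is close to 2, and it was under 2 without the background correction and after cyclic loess normalization. GBP1 also lay below percentile 99 of the control pair against SUM159 LacZ, as 0.585% of all genes did. The SUM159 LacZ array is in both the control pair and this comparison, so the 2 are not independent.

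The other calls depended on the control. IFIT2 (3.74-fold), IFI44 (2.67-fold), OASL (2.58-fold), HERC5 (2.26-fold) and IFIT1 (2.03-fold) were lower in the array labelled IRX5 than in SUM159 LacZ. OASL was not called with the probe nearest to 0. Against untransfected SUM159, IFIT2 (at least 2.05-fold), IRF1 (2.26-fold) and ISG20 (2.07-fold) were higher. IFIT2 shows this most plainly, with 289.6 in the array labelled IRX5, 999 in SUM159 LacZ and 129, below the limit, in SUM159. CD14 differed too, with 1072 in the array labelled IRX5, 426 in SUM159 LacZ and 179 in SUM159, and its part was not tested.

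**Figure D3:**
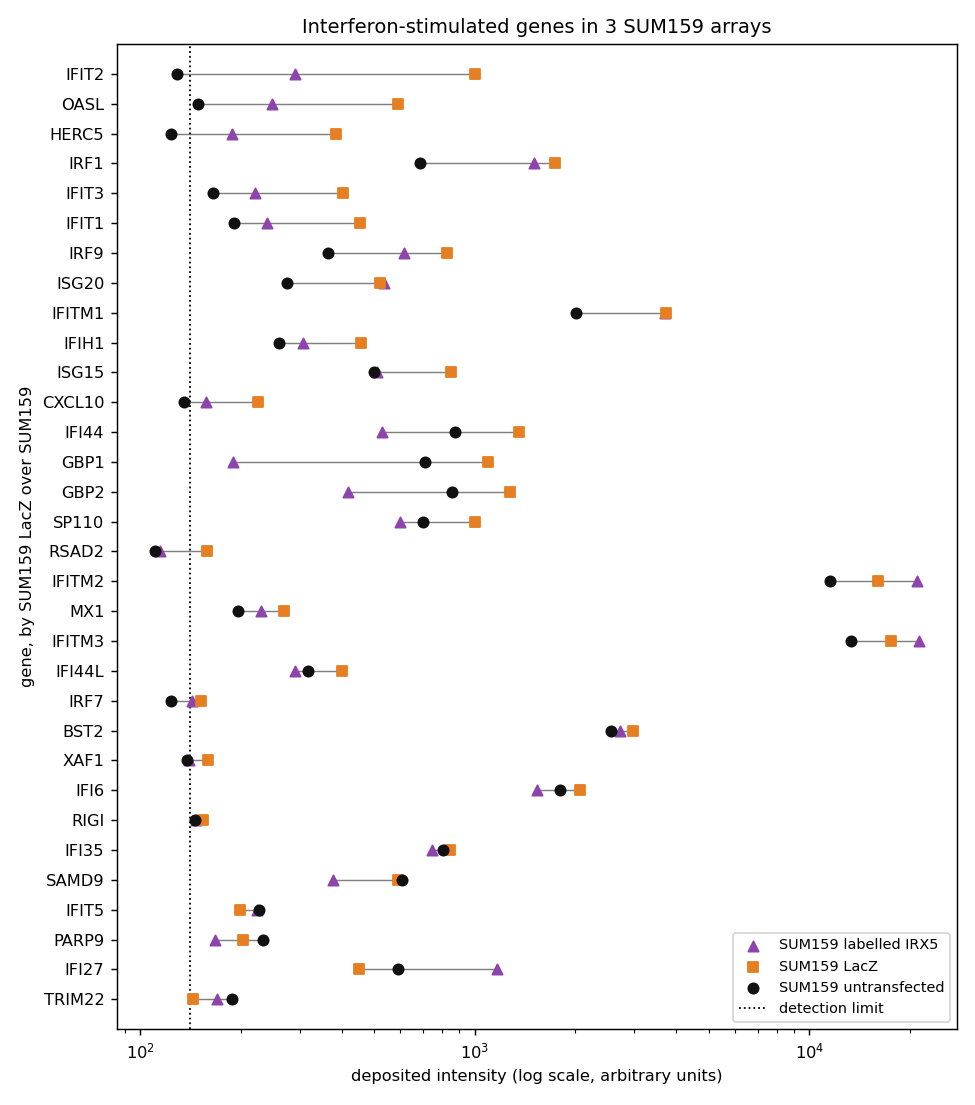
Deposited intensity (horizontal axis, log scale, arbitrary units) of the 32 interferon-stimulated genes above the detection limit (dotted line) in at least 1 SUM159 array, for SUM159 labelled IRX5 (triangles), SUM159 LacZ (squares) and untransfected SUM159 (circles), ordered by LacZ over untransfected. LacZ is the highest of the 3 for 24 genes and untransfected SUM159 the lowest for 20, and GBP1 and GBP2 are lowest in the array labelled IRX5. The order was not counted over all genes.

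Between untransfected lines, SUM1315 stood above SUM159 for the core of the set. At least 2-fold higher in SUM1315 were 19 of 35 members (54.3%), where 9.82% of 11430 genes were, and 5 were lower (14.3%), where 8.83% of genes were. The median was 1.27, against -0.01 over all genes. HERC5 was at least 39.8-fold higher and IFIT1 23.5-fold, followed by IFIT2 (at least 8.495-fold), ISG15 (7.55-fold), IRF9 (7.09-fold), IFIT3 (6.16-fold), IFI6 (6.10-fold), IFIH1 (5.95-fold) and MX1 (5.91-fold). The rest were XAF1 (at least 4.45-fold), ISG20 (5.13-fold), OAS2 (at least 3.80-fold), IRF7 (at least 3.38-fold), CXCL10 (at least 3.08-fold), IFI35 (3.0-fold), OASL (2.99-fold), RIGI (2.94-fold), IFI44 (2.40-fold) and OAS1 (at least 2.04-fold). IFIT3, OAS1, OAS2 and OASL were not called with the probe nearest to 0.

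The members lower in SUM1315 than in SUM159 all encode IFITM proteins, tetherin or guanylate-binding proteins. BST2 was 8.42-fold lower, IFITM3 5.69-fold, GBP2 4.27-fold, GBP1 4.17-fold and IFITM2 3.27-fold. By role, the median difference was 3.10 for the IFIT genes and 2.07 for the RNA sensors, against -2.11 for the IFITM genes with tetherin. Within that last role IFITM1 went the other way, at 3396 in SUM1315 and 2010.1 in SUM159. Upstream, JAK1 was 3.80-fold and the interferon gamma receptor chain IFNGR2 2.88-fold higher in SUM1315, IL10RB, a chain of the type III interferon receptor, was 2.12-fold higher, and IFNGR1 was 4.38-fold lower. Of the other interferon-stimulated genes, 7 of 36 were higher and 1 was lower, with a median of 0.07.

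MDA-MB231 was also above SUM159 for the IFIT and ISG15 genes, and the median of the set was smaller than in SUM1315. At least 2-fold higher in MDA-MB231 were 11 of 31 members (35.5%), where 7.34% of 11302 genes were, and 4 were lower (12.9%), where 6.96% were, with a median of 0.60. The higher ones were HERC5 (at least 13.2-fold), IFIT2 (at least 8.59-fold), IFIT1 (7.49-fold), MX1 (7.20-fold), IFIT3 (6.62-fold), ISG15 (3.98-fold), ISG20 (3.42-fold), XAF1 (at least 2.82-fold), OAS2 (at least 2.60-fold), RIGI (2.87-fold) and OASL (2.07-fold). IFIT3 and OAS2 were not called with the probe nearest to 0. BST2 was 11.5-fold lower, IFITM1 4.53-fold, IFI44L at least 2.25-fold and IFI27 2.47-fold. The 2 comparisons share the SUM159 array.

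**Figure D4:**
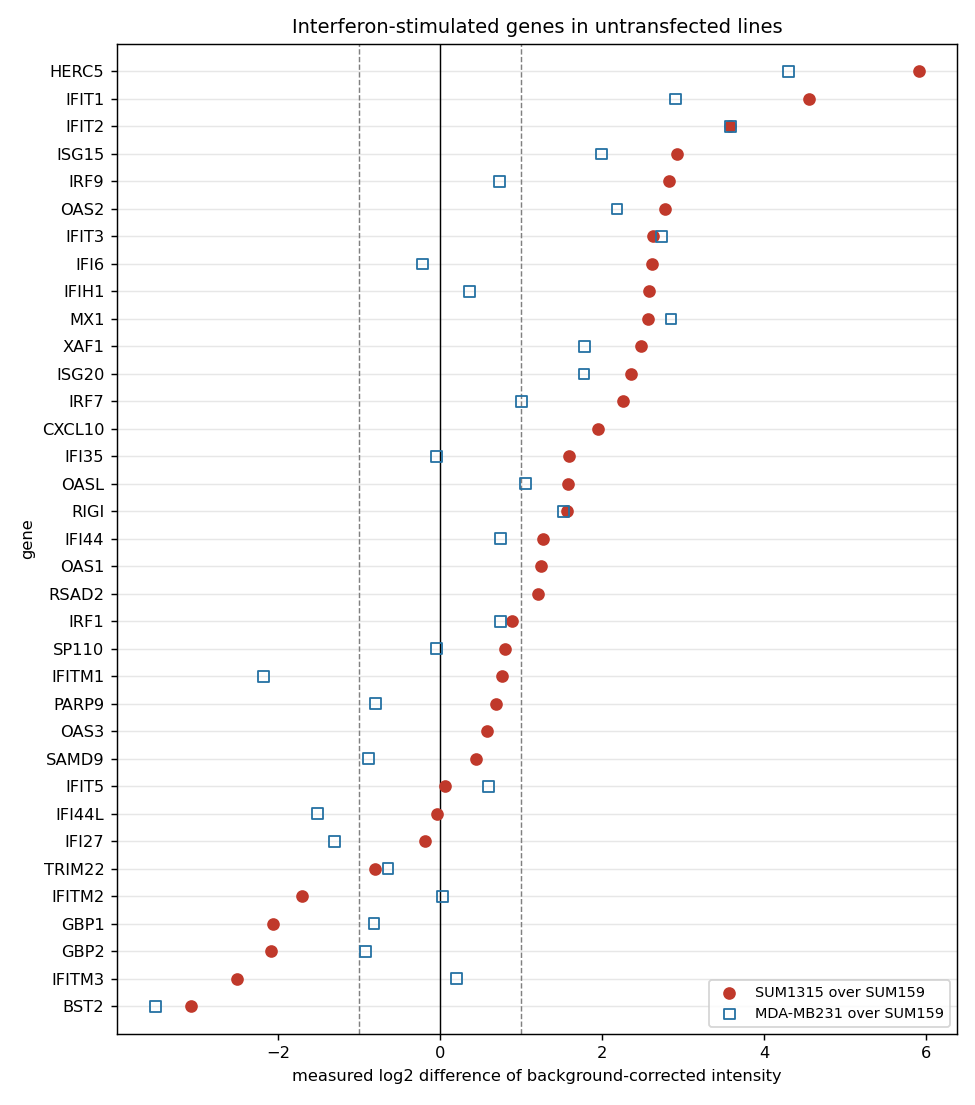
Measured log2 difference of background-corrected intensity (horizontal axis) of each interferon-stimulated gene (rows) in SUM1315 over SUM159 (filled circles) and MDA-MB231 over SUM159 (open squares), with dashed lines at 2-fold. HERC5, IFIT1 and IFIT2 lie farthest to the right in both series, which share the SUM159 array, and BST2 lies farthest to the left.

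SUM1315 and MDA-MB231 were also set directly against each other. At least 2-fold higher in SUM1315 were 14 of 34 (41.2%), where 10.8% of 11415 genes were, and 4 were lower (11.8%), where 10.9% were, with a median of 0.78. IFITM1 was 7.70-fold higher in SUM1315, IFI6 7.13-fold, IFIH1 4.62-fold, IRF9 4.27-fold and CXCL10 at least 3.08-fold. IFIT1 (3.13-fold), IFI35 (3.09-fold), HERC5 (3.05-fold), PARP9 (2.80-fold), IFI44L (at least 2.19-fold), SAMD9 (2.52-fold), IRF7 (2.39-fold), OAS1 (at least 2.04-fold) and IFI27 (2.17-fold) were higher too. OAS1 was not called with the probe nearest to 0. IFITM3 was 6.52-fold lower, IFITM2 3.33-fold, GBP1 2.37-fold and GBP2 2.25-fold. IFIT2 and IFIT3 differed by -0.02 and -0.10 on the log2 scale, within 2-fold.

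The LacZ arrays of SUM159 and HMLE carry the same control gene in a tumour line and a line not derived from a tumour. SUM159 LacZ was at least 2-fold higher for 5 of 35 members (14.3%), where 7.86% of 11362 genes were, and lower for 11 (31.4%), where 8.33% were, with a median of -0.39, against 0.05 over all genes. BST2 was 10.2-fold higher in SUM159 LacZ, IFITM1 5.15-fold, GBP2 5.08-fold, OASL 2.26-fold and IFIT2 2.10-fold. MX1 was 9.45-fold lower, SAMD9 4.03-fold, OAS1 at least 2.74-fold, IFI27 3.06-fold, IRF9 3.06-fold and IFI6 3.01-fold. ISG20 (2.78-fold), OAS2 (at least 2.29-fold), IFIT1 (2.20-fold), IRF7 (2.02-fold) and RIGI (2.01-fold) were lower as well. OASL and OAS2 were not called with the probe nearest to 0. All 6 epithelial markers were at least 2-fold lower in SUM159 LacZ, and line and tissue state cannot be told apart.

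**Figure D5:**
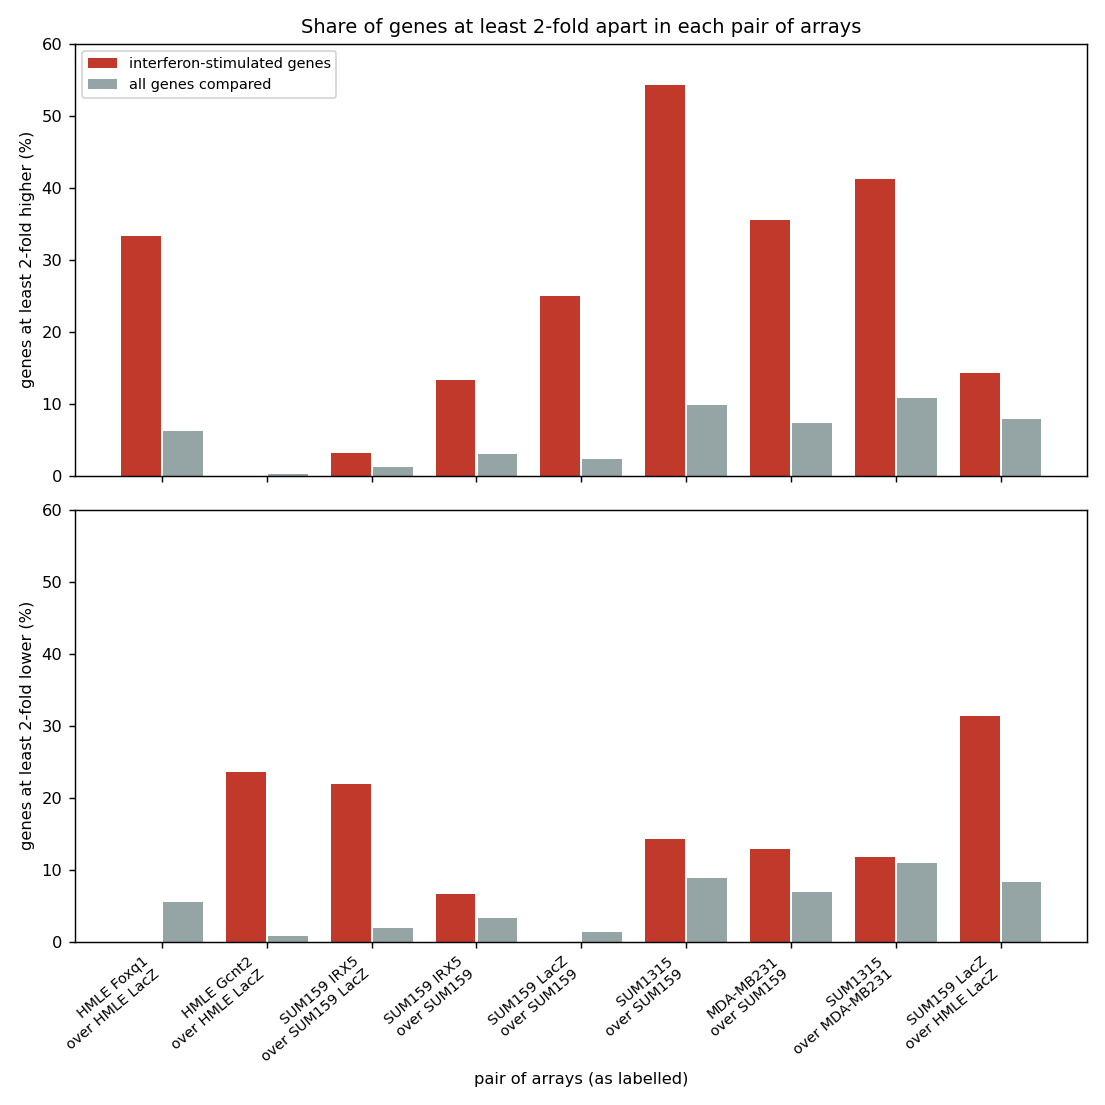
Percent of genes at least 2-fold higher (top) and at least 2-fold lower (bottom) in the first array of each of the 9 pairs, for the interferon-stimulated genes (left bar of each pair) and for all genes compared (right bar). The members' share is above that of all genes in the upper panel for SUM1315 over SUM159 (54.3% and 9.82%) and in the lower panel for HMLE Gcnt2 over HMLE LacZ (23.5% and 0.777%).

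The 4 lines were also set side by side, with the LacZ array standing for HMLE. On the background-corrected scale, 20 of the 36 members were at least 4-fold apart between their highest and lowest line. OAS2 (4.59-fold) and IRF7 (4.04-fold) are among these 20, and both were below the limit in SUM159, their lowest line. By the smaller fold used for folds given as "at least", both were under 4. How many of all genes were at least 4-fold apart was not counted. The highest line was SUM1315 for 16 members, HMLE LacZ for 11, MDA-MB231 for 6 and SUM159 for 3. The lowest was SUM159 for 19, MDA-MB231 for 10, SUM1315 for 6 and HMLE LacZ for 1. The 3 members highest in SUM159 were BST2, GBP2 and IFI44L, and the 1 lowest in HMLE LacZ was IFI35.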

How the data were processed

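Per the labels' protocols, total RNA was amplified, biotin-labelled and hybridised to Illumina bead arrays. The deposited intensity values are linear, run from 73.3 to 56056.2, and had been normalized by the authors so that sorted values agree between arrays within a CV of 1.27%, as read from the values; the submitters' processing notes list GenomeStudio, R 2.11.1 and lumi 1.14 without saying what each did. The number of arrays, 1 per group, limits the precision. A further table of unnormalized values has 16 columns that no label ties to a sample, and they were not used.

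Probes were named from the platform annotation and 21813 symbols were updated by Entrez number, which left 21834 named and 2692 unnamed probes. Values were background-corrected with limma 3.58.1 (normexp, offset 50; R 4.3.3) and put on a log2 scale, and tables were made with Python 3.11.15, pandas 2.3.3 and numpy 2.4.6. The detection limit is the tail of 0.01 of the background mirrored below its mode, and the control pair was binned into 10 classes of intensity. The steps were run on simulated arrays with known folds put into bright genes that each had a single probe. That run did not cover genes near the limit or probes that disagree. Alternatives were no normexp, cyclic loess, the mean of detected probes, the probe nearest to 0, a tail of 0.05 and no filter on dim genes.

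Values in all 8 arrays are given for members at least 2-fold apart in either HMLE comparison, at least 2-fold beyond both SUM159 controls, or at least 4-fold apart over the 4 lines (24 members). Of the pathway lists (interferon ligands, receptors and JAK-STAT, sensors and adaptors, negative regulators, other interferon-stimulated genes, interferon gamma preferred genes), up to 3 genes per direction are named in the HMLE comparisons. The pathway genes named elsewhere, and IFNA8 and IFNB1, were picked after their values were seen. Members and lists were chosen with earlier results of these data known.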

Additional observations from a re-analysis of the deposited data

How the results depend on the processing

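Of 108 counts of members at least 2-fold higher or lower under 6 alternatives, 106 stayed within 1.5 times the reported count. With the mean of detected probes, 1 member instead of 0 was lower in HMLE labelled Foxq1 than in HMLE LacZ, namely IFIT3, whose probes disagree. On the deposited intensities without normexp, 2 members instead of 4 were higher in SUM159 labelled IRX5 than in SUM159; that step takes off background, so folds are smaller without it. Of 54 medians none changed sign and 53 moved by at most 0.25 (log2), which can be most of a small median: that of SUM159 labelled IRX5 over SUM159 was 0.26, but 0.17 with a tail of 0.05 and 0.05 with no filter on dim genes. The median of MDA-MB231 over SUM159 was 0.60, but 0.36 with a tail of 0.05 and 0.19 with no filter, which adds 5 genes at or near background. The members called in every setting were 8 of 12 higher in HMLE labelled Foxq1, 7 of 8 lower in HMLE Gcnt2, 5 of 7 lower in SUM159 labelled IRX5 than in SUM159 LacZ, 5 of 8 higher in SUM159 LacZ than in SUM159, and 15 of 19 higher in SUM1315 than in SUM159. MX1 was not called with cyclic loess in HMLE labelled Foxq1, and OASL, OAS2 and IFIT3 were not with the probe nearest to 0. No paired analysis was possible because each group has 1 array. Genes near the limit, such as OAS3, MX2 and RSAD2, cannot show a 2-fold difference downward at this signal over background.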

Other observations

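Some sensors and adaptors around the programme also differed between the untransfected lines, and those named here were picked after their values were seen. IFI16, a nuclear DNA sensor, read 214 in SUM1315, 1762 in MDA-MB231 and 2636 in SUM159, and was 14.2-fold lower in SUM1315 than in SUM159. STING1, the adaptor of DNA sensing, read 119 in SUM1315, below the detection limit, 722 in MDA-MB231 and 264 in SUM159. CGAS, the enzyme upstream of STING1, read 186 in SUM1315, 444 in MDA-MB231 and 193 in SUM159. IKBKE, a kinase that activates interferon regulatory factors, read 155 in SUM1315, 969 in MDA-MB231 and 235 in SUM159. These 4 were lowest in SUM1315, whereas others on the list, such as TICAM1 at 2374 in SUM1315, 721 in MDA-MB231 and 1993 in SUM159, were highest there. Of 14 sensors and adaptors compared, 0 were higher and 3 lower in SUM1315 than in SUM159, where 9.82% and 8.83% of all genes were, and 4 were higher and 1 lower in MDA-MB231 than in SUM159, where 7.34% and 6.96% of all genes were.

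Antigen presentation genes of the interferon gamma list differed by line as well. HLA-DPA1 read 1412 in SUM1315, 216 in MDA-MB231 and 104 in SUM159, and was at least 10.02-fold higher in SUM1315 than in SUM159. HLA-DRA read 159.5 in SUM1315, 845 in MDA-MB231 and 119 in SUM159. CD74, the chain that escorts class II molecules, read 191 in SUM1315, 1943 in MDA-MB231 and 197 in SUM159. Class II genes that are usually expressed together were high in different lines. None of these differences is replicated.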
